A study of Sus scrofa with 9 samples.

Results

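The proteasome genes of the myocardium were examined in 9 porcine hearts from a model of donation after circulatory death (DCD). They were taken as every gene whose symbol is PSM, a letter from A to G and a number, which gave 28 of the 25149 genes listed. Of these, 22 had a TPM of at least 1 in at least 3 hearts, among 11782 genes that met this filter and were tested. TPM are read counts divided by gene length and then set to sum to 1000000 in each heart, which puts genes on a common scale. How fully the reads of each gene were counted may differ, so comparisons between genes are approximate. PSMC3IP matched by name alone, since it encodes a protein of meiotic recombination, and the other 21 genes tested encode subunits, assembly chaperones or activators of the proteasome.

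The proteasome is the main protease for ubiquitin-tagged proteins in the cytosol and nucleus. Its core particle is a barrel of alpha and beta rings with the active sites inside, and the regulatory particle on its end recognizes ubiquitin, removes it and unfolds the substrate with a ring of ATPases. Interferon can replace the catalytic subunits with PSMB8, PSMB9 and PSMB10, which gives the immunoproteasome and favors peptides for class I antigen presentation. In heart muscle the proteasome turns over sarcomere and signaling proteins and clears proteins damaged during ischemia and reperfusion.

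All pigs were female Yorkshire animals aged 4 to 6 months, and every heart went through 15 min of warm ischemia before procurement. Group 1 (NRP + HOPE 24 h: pigs 27, 28 and 30) received 60 min of normothermic regional perfusion (NRP), which circulates warm blood in the donor, and then 24 h of hypothermic oxygenated perfusion (HOPE) at 8 °C. Group 2 (NRP + SCS 2 h: pigs 24, 25 and 29) received the same NRP and then 2 h of static cold storage (SCS) at 4 °C. Group 3 (No NRP + HOPE 2 h: pigs 31, 33 and 34) had no NRP and was stored for 2 h in HOPE. They are also called the 24 h HOPE hearts, the SCS hearts and the no-NRP hearts. Each heart then beat on a bench-top circuit for 2 h of normothermic machine perfusion (NMP), after which the apex was sampled, so each value describes warm, reperfused muscle. Each pair of groups differs in more than 1 factor (NRP, storage method, duration or temperature), and their parts cannot be told apart.

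The deposited labels name cardiomyocytes, but the samples were whole biopsies. The 8 cardiomyocyte markers listed summed to 23393 to 44779 TPM per heart, the 8 endothelial markers to 301 to 717, the 6 fibroblast markers to 682 to 1161, the 9 leukocyte markers to 33.2 to 92.1 and the 2 red cell markers to 71.4 to 425. In such bulk samples, fewer cells of a type and less RNA per cell cannot be told apart. The 13 mitochondrially encoded protein genes took 38.2 to 55.3% of TPM, and the size factor (the median ratio of a heart's genes to their mean over hearts) ran from 0.737 in pig 27 to 1.34 in pig 30. Pig 34 stood apart in interferon-stimulated genes, which summed to 2865 TPM in that heart and to 234 to 625 TPM in the other 8.

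Most subunits of the core and regulatory particles were abundant in all 9 hearts, and the plot of levels by heart shows them within a narrow band. In the alpha ring, which gates the core, PSMA6 had a mean of 131 TPM over the 9 hearts and PSMA3 of 41.2 TPM. In the beta ring, PSMB7, which carries the trypsin-like activity, had a mean of 129 TPM, and PSMB6, which carries the caspase-like activity, of 115 TPM. PSMA6, PSMB7 and PSMB6 were the 3 most abundant of the 22 genes.

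**Figure D1:**
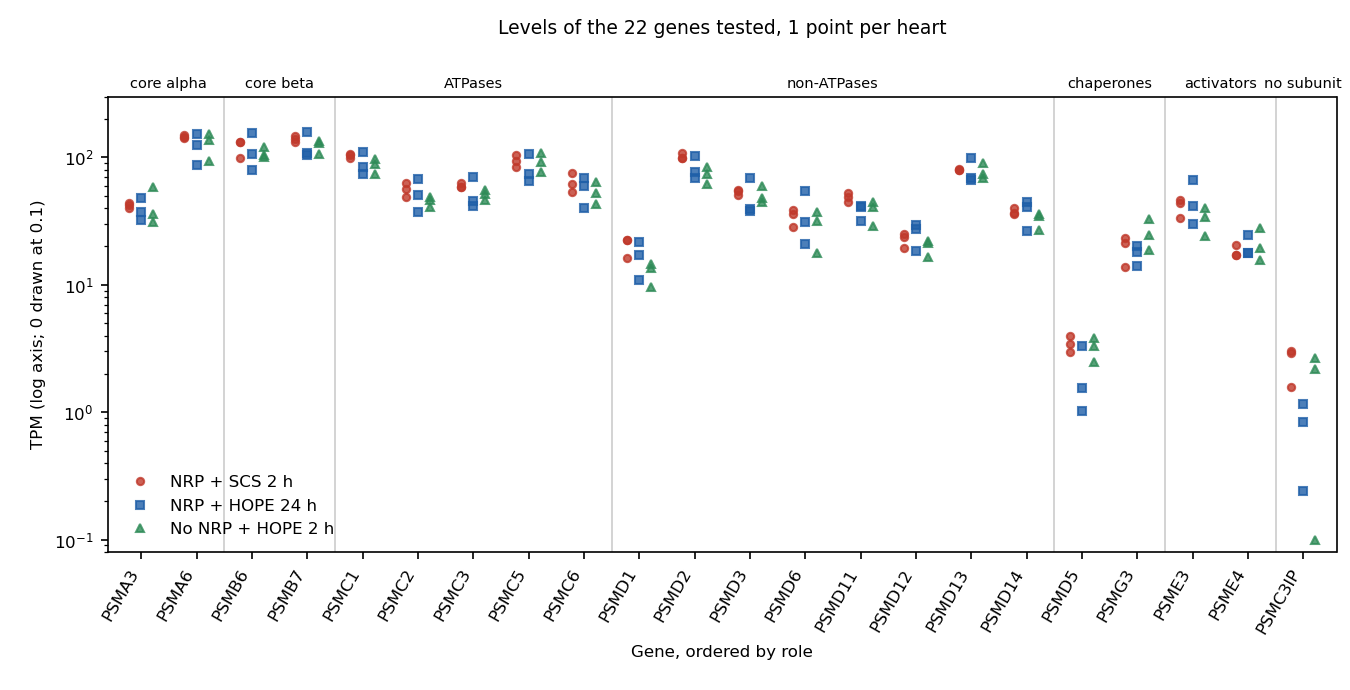
TPM (log axis) of the 22 proteasome-named genes tested, ordered by role, with 1 point for each of the 9 hearts and colors and shapes for the 3 groups; a value of 0 is drawn at 0.1. Core genes lie between 31.1 and 160 TPM, PSMD5 and PSMC3IP lie lowest, and the groups overlap for most genes.

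The ATPases, which unfold the substrate and thread it into the core, had means of 51.1 TPM (PSMC2) to 93.1 TPM (PSMC1). The 8 non-ATPase subunits named by symbol covered a wider range, from 16.5 TPM for PSMD1 to 86.0 TPM for PSMD2. These scaffold subunits, the largest of the regulatory particle, are nonetheless present in equal numbers in each particle. PSMD2 was 4.42 to 6.43 times PSMD1 in every heart. Between them lay the deubiquitinase PSMD14 with 35.7 TPM and the lid subunits PSMD3 (51.0 TPM), PSMD11 (41.7 TPM), PSMD6 (32.9 TPM) and PSMD12 (22.6 TPM), while PSMD13, also of the lid, reached 78.6 TPM. The chaperone PSMG3, which assists assembly of the core, had a mean of 20.8 TPM, and PSMD5, a chaperone of the ATPase ring, of 2.87 TPM. The nuclear activators PSME3 and PSME4 had means of 40.1 and 19.8 TPM.

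The 6 genes that did not pass the filter include both immunoproteasome subunits listed. PSMB8 read 0.343, 0.125 and 0.702 TPM in the NRP + SCS 2 h hearts (pigs 24, 25 and 29), 0, 0.328 and 0.468 TPM in the NRP + HOPE 24 h hearts (pigs 27, 28 and 30), and 0.483, 0.28 and 1.10 TPM in the No NRP + HOPE 2 h hearts (pigs 31, 33 and 34). PSMB9 read 0.205, 0 and 0.168 TPM, then 0.1, 0.392 and 0 TPM, then 0.145, 0 and 1.13 TPM in the same order. Pig 34 was the highest heart for both genes and the only one in which either reached 1 TPM. PSMB9 stood at 0 to 0.934% of PSMB6, the subunit whose place it takes. PSMA8 and PSMB11, known from testis and thymus, were listed at 0 in all 9 hearts, as were the activator subunit PSME1 and PSMB1. PSMB1 is a constitutive part of every core particle, so a listing at 0 in this table does not show that a gene is silent.

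Of 48 symbols written for subunits, chaperones, activators and an inhibitor, 27 had a row under the symbol, 4 (PSMA1, PSMA5, PSMD4 and PSME2) had one through a table of gene IDs, and 17, PSMB5 and PSMB10 among them, were not analysed here. The means of the 4 were 57.1 TPM for PSMA1, 82.9 TPM for PSMA5, 109 TPM for the ubiquitin receptor PSMD4 and 112 TPM for the interferon-induced activator subunit PSME2. They lay within the range of the subunits named by symbol.

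The summed level of the proteasome genes differed from heart to heart, and its extremes were those of the scale of the library. The 22 genes summed to 1343, 1338 and 1249 TPM in the NRP + SCS 2 h hearts, to 947, 1075 and 1510 TPM in the NRP + HOPE 24 h hearts and to 965, 1163 and 1320 TPM in the No NRP + HOPE 2 h hearts. Pig 30 was the highest heart for 10 of the 22 genes, and pigs 27 and 31 were the lowest for 7 and 10. The size factor of these hearts, in the same order of 9, was 1.08, 1.06 and 1.07, then 0.737, 0.916 and 1.34, then 0.781, 1.08 and 1.18. The highest and lowest sums were thus those of the highest and lowest size factors, and the plot of sums by heart shows both side by side.

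**Figure D2:**
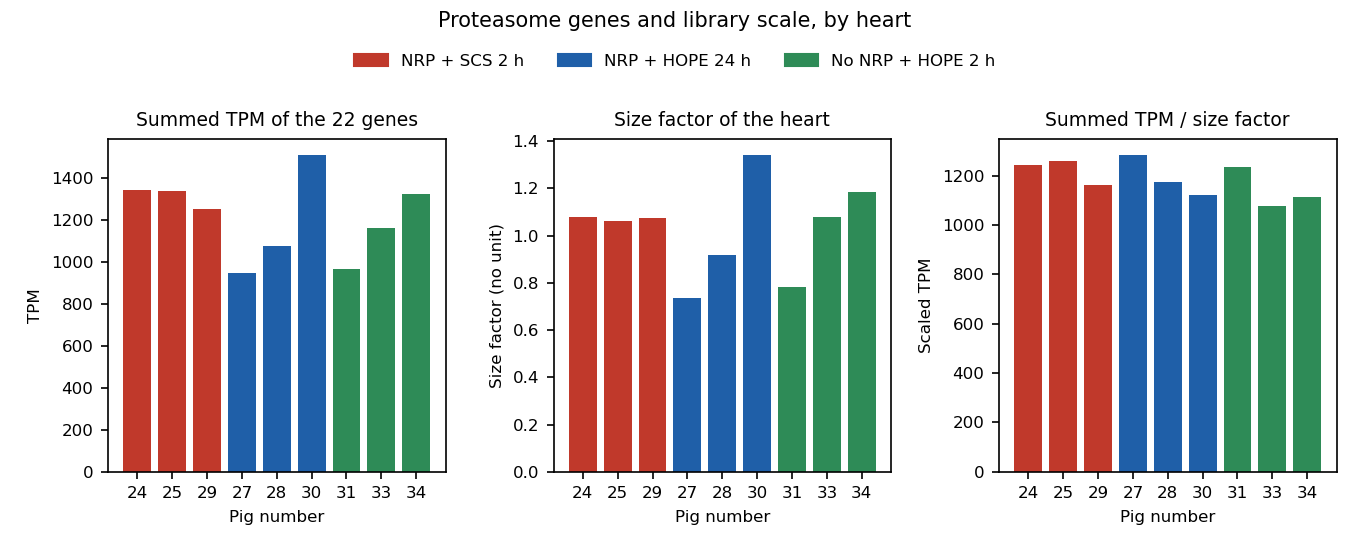
Bars give, for each of the 9 hearts (pig number on the x axis, color for the group), the summed TPM of the 22 proteasome-named genes, the size factor, which has no unit, and the sum divided by the size factor. The sum runs from 947 to 1510 TPM as deposited and from 1078 to 1286 scaled TPM after division.

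Divided by the size factor, the sums were 1243, 1258 and 1163 in the NRP + SCS 2 h hearts, 1286, 1173 and 1124 in the NRP + HOPE 24 h hearts and 1236, 1078 and 1114 in the No NRP + HOPE 2 h hearts. The highest heart was then 1.19 times the lowest, against 1.59 times as deposited, and the groups overlapped. As a share of all TPM outside the mitochondrially encoded genes, the 22 genes took 0.261 to 0.265% in the NRP + SCS 2 h hearts, 0.212 to 0.244% in the NRP + HOPE 24 h hearts and 0.214 to 0.239% in the No NRP + HOPE 2 h hearts. On this scale the NRP + SCS 2 h hearts lay above the other 6, an order that is not seen after division by the size factor.

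The proteasome genes varied little between hearts of a group. Their median standard deviation within groups was 0.30 on the log2(TPM + 1) scale, against 0.42 for all 11782 genes, and 0.18 against 0.33 after median-of-ratios scaling, which divides each heart by its size factor. Among genes with a mean of at least 10 TPM, 18 of 20 proteasome genes lay below the median of all 4683 such genes (0.39), and 19 of 20 did after scaling (0.28). PSMA6 was the steadiest after scaling, with 0.09, followed by PSMC1 with 0.11 and PSMB7 with 0.12. PSMC3IP, which is no subunit, varied most, with 0.67, followed by the chaperone PSMG3 with 0.49.

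At the level of RNA, the ratio of the ATPases to the core genes varied 1.18-fold over the hearts and that of the non-ATPases 1.31-fold. The particles themselves were not measured. The geometric mean of the 5 ATPases was 0.679, 0.728 and 0.764 of that of the 4 core genes in the NRP + SCS 2 h hearts, 0.682, 0.745 and 0.711 in the NRP + HOPE 24 h hearts and 0.723, 0.705 and 0.646 in the No NRP + HOPE 2 h hearts. For the 8 non-ATPase genes the ratio to the core was 0.415, 0.417 and 0.459, then 0.402, 0.484 and 0.435, then 0.379, 0.416 and 0.370. Both ratios compare genes within a heart and do not depend on its scale, and in both the groups overlapped, with pigs 31 and 34 lowest for the non-ATPases.

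The first comparison asked how the proteasome genes differed after 24 h of HOPE from 2 h of SCS, both after NRP. None of the 22 genes passed the test (a Benjamini-Hochberg adjusted p below 0.05 from limma and a log2 fold change beyond 1 in either direction), against 0.0255% of all genes tested, and the lowest adjusted p among them was 0.993. At an unadjusted p under 0.05 the count was 0 higher (1.82% of all genes) and 1 lower (3.14% of all genes). This gene was PSMC3IP, which read 1.59, 2.90 and 3.04 TPM in the NRP + SCS 2 h hearts and 1.17, 0.846 and 0.241 TPM in the NRP + HOPE 24 h hearts. Its log2 fold change was -1.01 ± 0.47 (SE), with an unadjusted p of 0.0483 and a limma adjusted p of 0.993, and it lost the unadjusted threshold without pig 25, 28, 29 or 30, after scaling, with a pseudocount of 0.1, with no filter and without the mitochondrially encoded genes. Over these alternatives the log2 fold change lay between -1.76, with the pseudocount of 0.1, and -0.78, without pig 30.

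Lower values prevailed in the 24 h HOPE hearts across the table, the proteasome genes included. The log2 fold change was below 0 for 19 of the 22 genes (86.4%) and for 64.1% of all genes, with a median of -0.19 over the proteasome genes and -0.12 over all genes. After scaling, the median of all genes moved by over 0.1 to 0.00, 13 of the 22 (59.1%) lay below 0, against 50% of all genes, and the median of the 22 was -0.04. The median over the proteasome genes was -0.06 without pig 27, -0.11 without pig 28 and -0.39 without pig 30. Among the marker lists, 8 of 8 endothelial genes were lower (median -0.47, and -0.32 after scaling) and 6 of 6 fibroblast genes were higher (median 0.14, and 0.28 after scaling). Of the cardiomyocyte genes 5 of 8 were lower (median -0.17, and -0.02 after scaling). None of these had an unadjusted p under 0.05 as deposited, and after scaling 1 endothelial and 1 fibroblast gene did. Of the leukocyte genes 5 of 8 were higher (median 0.21, and 0.29 after scaling), none at that p. The red cell genes were higher, 2 of 2 (median 1.09, and 1.17 after scaling), 1 of them at that p on either scale. The part of these cell types in the values of the proteasome genes was not tested. The 2 groups did not overlap for 0 genes with higher values in 24 h HOPE (2.5% of all genes) and for 2 with lower values (9.09%, against 7.32% of all genes), PSMC3IP and the lid subunit PSMD11. PSMD11 read 52.6, 44.5 and 49.3 TPM after 2 h of SCS and 31.9, 41.1 and 41.5 TPM after 24 h of HOPE (log2 fold change -0.35 ± 0.27, limma adjusted p = 0.993). Its log2 fold change was -0.23 without pig 27 and -0.21 after scaling, where the groups overlapped.

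By role, the median log2 fold change in this comparison was -0.17 for the 4 core genes, -0.22 for the 5 ATPases and -0.12 for the 8 non-ATPases, and -0.02, -0.08 and 0.03 after scaling. All 4 core genes and all 5 ATPases had lower means after 24 h of HOPE as deposited, but 2 core genes and 1 ATPase had higher ones after scaling. The chaperone PSMD5 had the largest difference among the proteasome's own genes. It read 3.95, 3.44 and 2.96 TPM in the NRP + SCS 2 h hearts, 1.02, 1.54 and 3.29 TPM in the NRP + HOPE 24 h hearts and 2.47, 3.32 and 3.82 TPM in the No NRP + HOPE 2 h hearts. Pig 30 lay among the hearts of the other groups and pigs 27 and 28 lay below all of them. The log2 fold change of PSMD5 against SCS was -0.66 ± 0.34, with an unadjusted p of 0.0755 and a limma adjusted p of 0.993, and it was -0.97 without pig 30 and -0.42 without pig 27.

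After scaling, PSMD5 was the 1 gene of the 22 (4.55%) with an unadjusted p under 0.05 in this comparison, against 8.54% of all genes. Its scaled values of 1.38, 1.68 and 2.45 in the NRP + HOPE 24 h hearts lay below the 2.76 to 3.65 of the other 6 hearts, and it was the 1 gene whose groups then did not overlap with lower values after 24 h of HOPE (4.55%, against 7.55% of all genes), with 0 higher (7.09% of all genes). The scaled log2 fold change was -0.58 ± 0.22, with an unadjusted p of 0.0244 and a limma adjusted p of 0.517. These are low levels, at which the pseudocount of 1 shrinks the fold change.

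**Figure D3:**
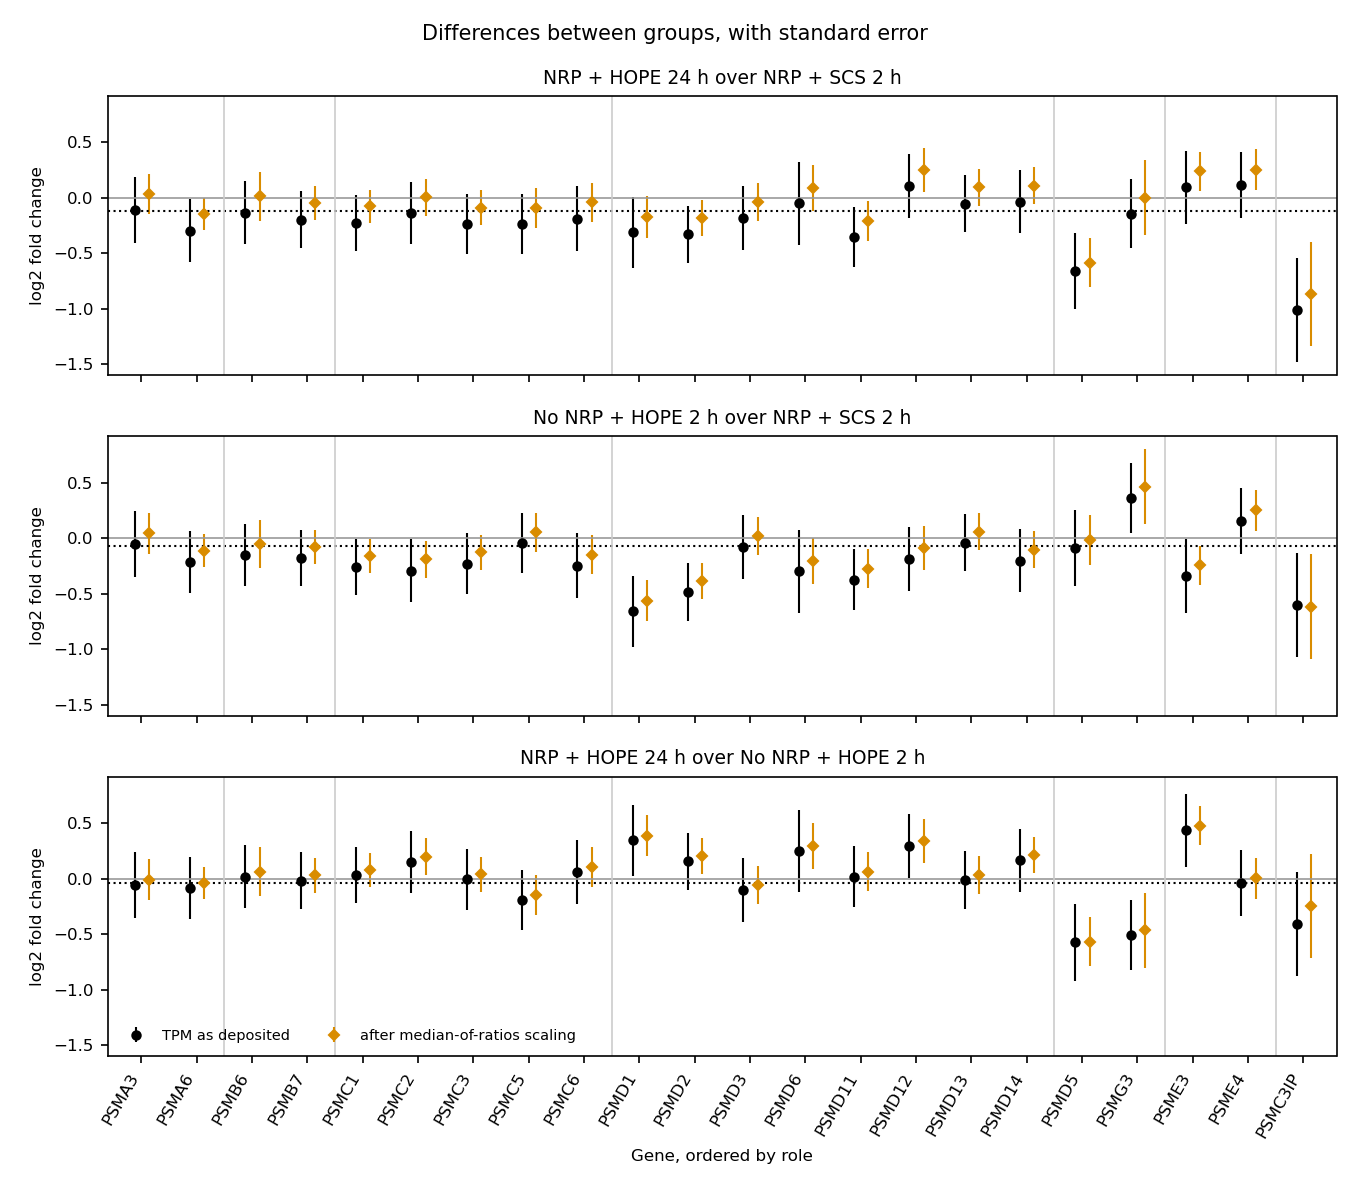
Log2 fold change (y axis) of each of the 22 genes (x axis, ordered by role) in the 3 comparisons, with its standard error, for TPM as deposited (circles) and after median-of-ratios scaling (diamonds); the dotted line is the median over all genes as deposited. Most genes lie within 0.5 of 0, and among those farther below 0 in at least 1 panel are PSMD5, PSMD1, PSMG3 and PSMC3IP.

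The second comparison set the no-NRP hearts against the SCS hearts, at equal storage time. None of the 22 genes passed the limma test, against 0.0509% of all genes, and the lowest adjusted p was 0.708. At an unadjusted p under 0.05 the count was 0 in either direction, against 2.57% of all genes higher and 4.65% lower. The log2 fold change was below 0 for 20 of the 22 genes (90.9%) and for 57.8% of all genes, with medians of -0.21 and -0.07. After scaling it was below 0 for 16 of the 22 (72.7%) and for 49.3% of all genes, and the median of the 22 was -0.11. The median was -0.07 without pig 31 and -0.30 without pig 34. In the same comparison 6 of 8 endothelial markers were lower (median -0.34, and -0.24 after scaling) and 5 of 6 fibroblast markers were higher (median 0.32, and 0.42 after scaling). Of the cardiomyocyte markers 7 of 8 were lower (median -0.12, and -0.02 after scaling). None of these had an unadjusted p under 0.05 on either scale. Of the leukocyte markers 6 of 8 were higher (median 0.04, and 0.13 after scaling), none at that p. The red cell markers were higher, 2 of 2 (median 1.33, and 1.41 after scaling), each at that p on either scale. The part of these cell types in the values of the proteasome genes was not tested.

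The groups of this comparison did not overlap for 5 of the 22 genes (22.7%), all of them lower in No NRP + HOPE 2 h, against 10.3% of all genes lower, and for 0 of the 22 higher, against 4.44% of all genes. These were the ATPases PSMC1, PSMC2 and PSMC3 and the scaffold subunits PSMD1 and PSMD2. PSMD1 read 22.5, 22.3 and 16.2 TPM in the NRP + SCS 2 h hearts and 9.62, 13.6 and 14.5 TPM in the No NRP + HOPE 2 h hearts, with 10.9, 17.2 and 21.7 TPM in the NRP + HOPE 24 h hearts between and across them. Its log2 fold change was -0.66 ± 0.32, with an unadjusted p of 0.0596 and a limma adjusted p of 0.708. PSMD2, the other scaffold, read 109, 98.8 and 99.0 TPM after NRP and SCS and 61.9, 84.0 and 74.2 TPM without NRP. Its log2 fold change was -0.48 ± 0.26, with an unadjusted p of 0.0819 and a limma adjusted p of 0.746.

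After scaling the groups did not overlap for 4 of the 22 genes (18.2%), all lower without NRP, against 9.92% of all genes lower, and for 0 higher, against 8.03% of all genes. These were both scaffold genes and the core subunit PSMA6 and the lid subunit PSMD11, whose groups overlapped as deposited. PSMA6 then read 132 to 137 scaled TPM in the NRP + SCS 2 h hearts and 121 to 129 in the No NRP + HOPE 2 h hearts, and PSMD11 read 41.8 to 48.7 against 36.8 to 37.9. PSMD1 then read 20.8, 21.0 and 15.0 in the NRP + SCS 2 h hearts and 12.3, 12.6 and 12.2 in the No NRP + HOPE 2 h hearts, a log2 fold change of -0.56 ± 0.19 (unadjusted p = 0.0125, limma adjusted p = 0.285). PSMD2 read 101, 92.9 and 92.2 against 79.3, 77.8 and 62.6, a log2 fold change of -0.38 ± 0.16 (unadjusted p = 0.0391, limma adjusted p = 0.377). They were the 2 genes of the 22 (9.09%) at an unadjusted p under 0.05 after scaling, against 12.4% of all genes, so the share is no larger than that of the table as a whole. The 3 ATPases that did not overlap as deposited had smaller differences, with log2 fold changes of -0.26 for PSMC1, -0.29 for PSMC2 and -0.23 for PSMC3, each with a standard error of 0.25 to 0.28. After scaling they were -0.16, -0.19 and -0.13, and their groups overlapped. Without pig 31, PSMC1 was at -0.15 as deposited.

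**Figure D4:**
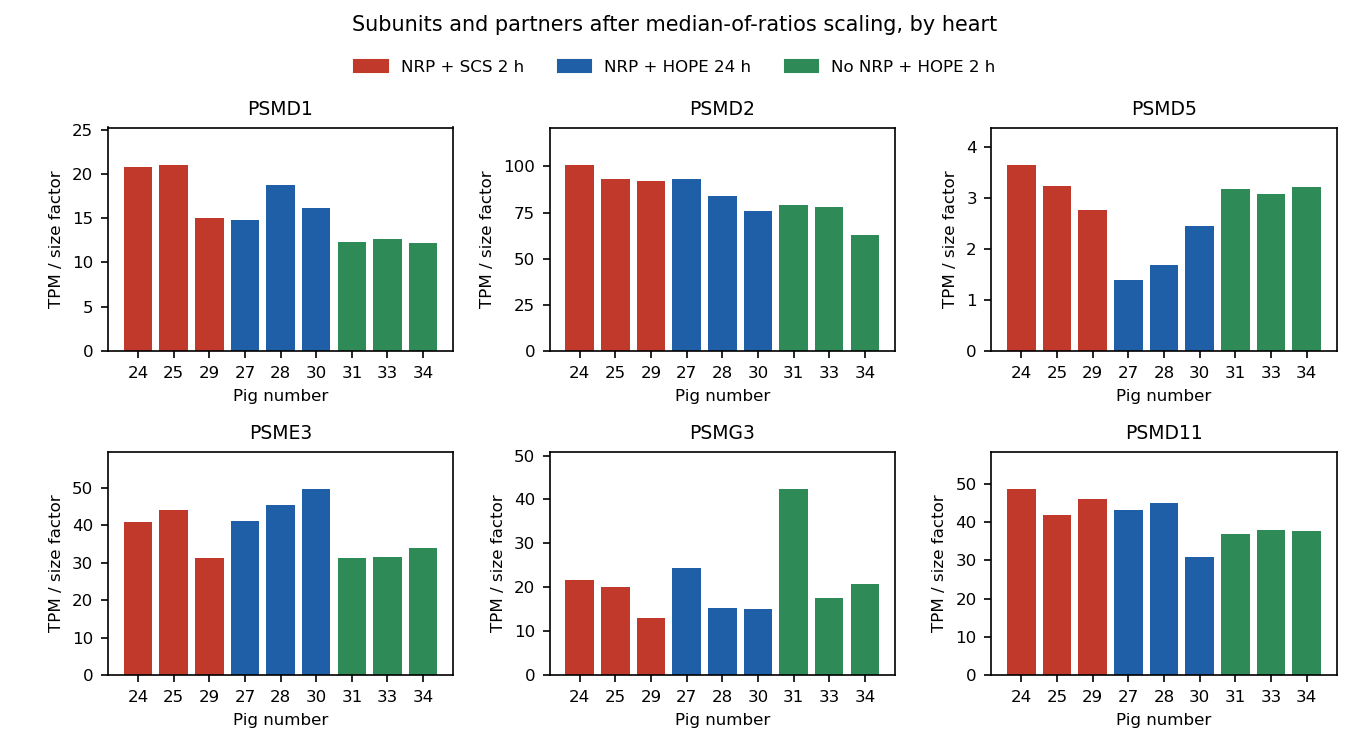
Bars give TPM divided by the size factor for PSMD1, PSMD2, PSMD5, PSME3, PSMG3 and PSMD11 in each of the 9 hearts (pig number on the x axis, color for the group). PSMD1 is lowest in the No NRP + HOPE 2 h hearts (12.2 to 12.6), PSMD5 in the NRP + HOPE 24 h hearts (1.38 to 2.45), and the highest bar for PSMG3 is 1 heart, pig 31.

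By role, the medians against NRP + SCS 2 h were -0.17 for the core genes, -0.25 for the ATPases and -0.25 for the non-ATPases, and -0.06, -0.15 and -0.15 after scaling. PSMG3 and PSME4 were the 2 genes with higher means in the No NRP + HOPE 2 h hearts as deposited. PSMG3 read 33.1 TPM in pig 31, 18.9 in pig 33 and 24.6 in pig 34, against 23.5, 21.2 and 13.9 TPM in the NRP + SCS 2 h hearts. PSME4 read 15.5, 19.5 and 28.0 TPM against 17.2, 17.2 and 20.4 TPM. Pig 31 was the highest of all 9 hearts for the core chaperone and pig 34 for the activator, and the groups overlapped for both.

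The third comparison set the 24 h HOPE hearts against the no-NRP hearts. It shares its hearts with the first and second comparison and is not independent of them. None of the 22 genes passed the limma test, against 0.0509% of all genes, and the lowest adjusted p was 0.909. At an unadjusted p under 0.05 the counts were 0 higher (2.78% of all genes) and 0 lower (3.23%), and the groups overlapped for all 22, against 2.97% of all genes that did not overlap with higher values and 4.51% with lower values. The log2 fold change was below 0 for 11 of the 22 (50%) and for 53.9% of all genes, with medians of 0.00 and -0.03. After scaling it was below 0 for 7 of the 22 (31.8%) and for 49.8% of all genes. The median was 0.14 without pig 27, 0.06 without pig 28, 0.13 without pig 34, -0.18 without pig 30 and -0.09 without pig 31, so that its direction rests on single hearts.

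After scaling, 2 of the 22 genes (9.09%) had an unadjusted p under 0.05 in this comparison, against 11.7% of all genes. PSMD5 was lower after 24 h of HOPE, with a scaled log2 fold change of -0.57 ± 0.22 (unadjusted p = 0.0275, limma adjusted p = 0.375). Over the alternatives it ran from -0.88, without pig 30, to -0.34. PSME3, the nuclear activator, read 41.1, 45.3 and 49.7 scaled TPM after 24 h of HOPE and 31.2, 31.5 and 34.0 in the No NRP + HOPE 2 h hearts, a log2 fold change of 0.48 ± 0.18 (unadjusted p = 0.0209, limma adjusted p = 0.356). As deposited, PSME3 read 30.3, 41.5 and 66.7 TPM against 24.3, 33.9 and 40.3 TPM, and the groups overlapped. Its log2 fold change ran from 0.14 to 0.69 over the alternatives. After scaling the groups did not overlap for PSME3 and PSMD1, both higher after 24 h of HOPE (9.09%, against 8.3% of all genes), and for PSMD5, which was lower (4.55%, against 7.97% of all genes). PSMG3 had a log2 fold change of -0.51 ± 0.31 as deposited (limma adjusted p = 0.923), and -0.31 without pig 31.

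The standard error of the log2 fold change was 0.25 to 0.47 over the 22 genes, with a median of 0.28. Differences of the size seen for most subunits were therefore within their error with 3 hearts per group, and a test that misses the threshold does not show that the levels were equal. The 4 genes found through gene IDs gave no call either, with log2 fold changes between -0.30 and -0.09 in the first comparison, -0.05 and 0.10 in the second, and -0.40 and -0.05 in the third.

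On the interferon side of the proteasome, pig 34 was the highest heart for the induced subunits and for their regulators. PSME2 read 145, 95.7 and 99.2 TPM in the NRP + SCS 2 h hearts, 80.3, 88.6 and 104 TPM in the NRP + HOPE 24 h hearts and 74.5, 109 and 211 TPM in the No NRP + HOPE 2 h hearts. IRF1, the factor that drives induced subunits, read 121, 109 and 106 TPM, then 165, 158 and 120 TPM, then 114, 143 and 263 TPM. IRF9, a part of the type I interferon signal, read 37.2, 53.2 and 48.9 TPM, then 23.7, 34.3 and 49.8 TPM, then 30.6, 61.9 and 116 TPM. The same heart led in IRF2 (21.5 TPM, others 4.47 to 7.97), STAT2 (49.8 TPM, others 5.93 to 11.8) and SOCS1 (61.2 TPM, others 15.7 to 34.0), while STAT3 (116 TPM) lay within the range of the others and IRF7 was listed at 0 in all hearts.

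**Figure D5:**
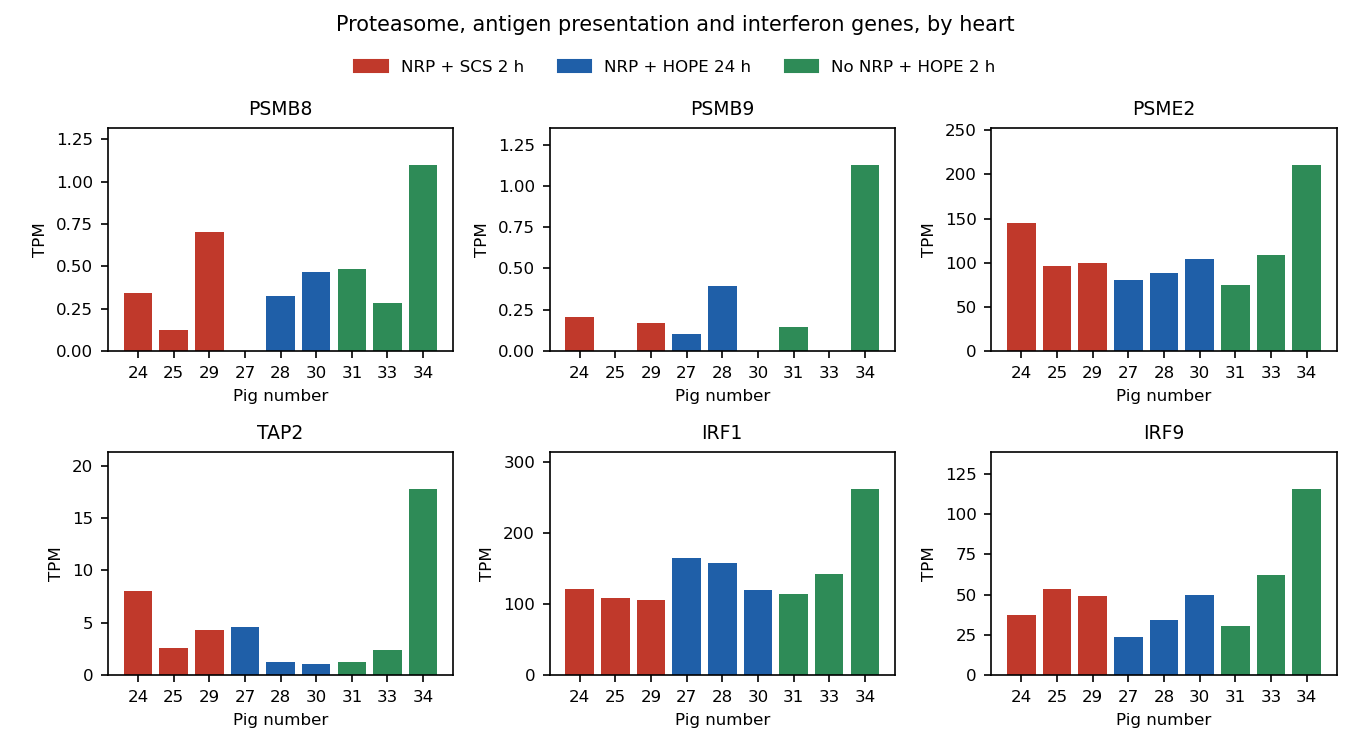
TPM of PSMB8, PSMB9, PSME2, the peptide transporter gene TAP2 and the interferon regulators IRF1 and IRF9 in each of the 9 hearts (pig number on the x axis, color for the group; each panel has its own y axis). Pig 34 is the highest bar in each panel, at 1.10, 1.13, 211, 17.8, 263 and 116 TPM.

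The immunoproteasome subunits PSMB8 and PSMB9 were listed near 1 TPM in pig 34, where PSME2 stood at 211 TPM. Since even the constitutive PSMB1 is listed at 0 in every heart, a low listed value cannot settle whether a gene was induced. In the RefSeq annotation of Sscrofa11.1, TAP2, PSMB8, TAP1 and PSMB9 follow one another within the major histocompatibility complex. TAP2, which carries peptides into the endoplasmic reticulum with TAP1, read 1.03 to 8.02 TPM in 8 hearts and 17.8 TPM in pig 34, while TAP1 read 0.0536 to 0.628 TPM in all 9. The low values of PSMB8 and PSMB9 were thus shared by the gene between them. Leukocytes are rich in immunoproteasome. Their 9 markers summed to 73.7 TPM in pig 34, within the 33.2 to 92.1 TPM of all hearts. Of the 8 tested, 6 were higher and 2 lower in the no-NRP against the SCS hearts, with a median log2 fold change of 0.04. CD2 of T cells, picked after its values were seen, was highest in pig 34 (11.9 TPM, others 1.05 to 4.12). MS4A1 of B cells, picked in the same way, read 0 in that heart and at most 0.565 TPM in any. The part of these cells in the values of PSMB8 and PSMB9 was not tested.

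The induced subunit PSMB9 was set against PSMB6 in each heart as a log2 ratio with a pseudocount of 1, which was the 1 pair of induced and constitutive subunits with both genes listed. The mean log2 ratio of the 24 h HOPE hearts minus that of the SCS hearts was 0.18, the no-NRP hearts minus the SCS hearts gave 0.42, and the 24 h HOPE hearts minus the no-NRP hearts gave -0.24. The exact two-sided permutation p was 0.8, 0.3 and 0.7 (adjusted 0.8 in each), where 0.1 is the smallest that 3 hearts against 3 can give. Without pig 34 the second difference was 0.16 and the third was 0.01. Since PSMB9 lay under 1 TPM in 8 hearts and at 0 in 3, these differences also carry those of PSMB6. The mean log2 level of PSMB9 differed by 0.04, 0.26 and -0.22 in the 3 comparisons, and that of PSMB6 by -0.13, -0.15 and 0.02.

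Of the interferon regulators, 0 of 6 tested passed the limma test in any comparison, and SOCS1, a feedback inhibitor, had an unadjusted p under 0.05 in 1, with a log2 fold change of -0.98 ± 0.37 in the 24 h HOPE against the no-NRP hearts (limma adjusted p = 0.700), and -0.61 without pig 34. After scaling, an unadjusted p under 0.05 was reached by STAT3 in the first comparison (-0.43 ± 0.19, limma adjusted p = 0.571), by SOCS1 in the second (0.75 ± 0.29, limma adjusted p = 0.342) and by SOCS1 and IRF9 in the third (-0.93 ± 0.29 and -0.75 ± 0.29, limma adjusted p = 0.266 and 0.375). The 17 interferon-stimulated genes tested gave no call. Of these, 3 were higher at an unadjusted p under 0.05 in the no-NRP against the SCS hearts, against 2.57% of all genes, with the antiviral gene IFIT1 at 1.96 ± 0.76 (limma adjusted p = 0.596), and 5 were lower in the 24 h HOPE against the no-NRP hearts, against 3.23% of all genes. These counts rest on single hearts. Against SCS the count was 0 without pig 34, 1 without pig 24 or 29, 5 without pig 33 and 16 without pig 31, and IFIT1 was at 0.93 without pig 34. Against the no-NRP hearts it was 2 without pig 34 or 27, 3 without pig 30 and 16 without pig 31. The share of all genes at that p, in either direction, was 7.02% and 4.93% in these comparisons without pig 34, and 7.17% and 8.76% without pig 31. Without pig 34 the median log2 fold change over the 17 genes was 0.06 and -0.05, against 0.97 and -0.89 with it. Of 7 class I presentation genes, 0 reached an unadjusted p under 0.05, and 3 did in the third comparison without pig 31.

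None of the genes that control or attend the proteasome passed the limma test. NFE2L1, the factor that raises subunit genes when proteasome activity falls short, read 105, 112 and 109 TPM in the NRP + SCS 2 h hearts, 75.4, 67.4 and 108 TPM in the NRP + HOPE 24 h hearts and 87.5, 104 and 162 TPM in the No NRP + HOPE 2 h hearts. NFE2L2, the oxidative stress factor of the same family, read 42.5, 34.5 and 49.2 TPM, then 42.7, 70.7 and 74.1 TPM, then 34.4, 58.0 and 60.5 TPM. Their log2 fold changes in the first comparison were -0.40 ± 0.29 and 0.53 ± 0.32 (limma adjusted p = 0.993 for both). After scaling, NFE2L1 was at -0.25 there, NFE2L2 at 0.68 ± 0.19 (unadjusted p = 0.00564, limma adjusted p = 0.377), and NFE2L1 at -0.43 ± 0.19 in the third comparison (unadjusted p = 0.0434, limma adjusted p = 0.416). VCP and NGLY1, which release NFE2L1 from the endoplasmic reticulum and remove its sugars, and the partners MAFF and MAFK gave no unadjusted p under 0.05 in any comparison as deposited or after scaling.

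Among other parts and partners of the proteasome, 0 of 6 tested reached an unadjusted p under 0.05 as deposited. After scaling 1 did, the thioredoxin-like TXNL1, with 0.43 ± 0.18 in the 24 h HOPE against the no-NRP hearts (limma adjusted p = 0.407). UCHL5, a deubiquitinase bound to the regulatory particle, had a log2 fold change of -0.54 ± 0.34 in the no-NRP against the SCS hearts (limma adjusted p = 0.809). Its groups did not overlap (6.71 to 11.3 against 11.4 to 14.7 TPM), as for 10.3% of all genes with lower values there. With array weights its log2 fold change was -0.31. The mean was 4.38 TPM for PAAF1, an assembly chaperone of the ATPase ring, 5.89 TPM for the ligase UBE3C, 13.8 TPM for the adaptor ECPAS, 30.2 TPM for AKIRIN2, which brings proteasomes into the nucleus, and 44.7 TPM for TXNL1, and USP14, a second deubiquitinase of the particle, was listed at 0.

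Upstream of the proteasome, the polyubiquitin gene UBB was among the abundant transcripts. It read 2181, 2407 and 1829 TPM in the NRP + SCS 2 h hearts, 2460, 2650 and 2624 TPM in the NRP + HOPE 24 h hearts and 2554, 2653 and 2722 TPM in the No NRP + HOPE 2 h hearts, with the SCS hearts below the other 6. Against the SCS hearts, UBB had a log2 fold change of 0.28 ± 0.19 in the 24 h HOPE hearts and 0.31 ± 0.19 in the no-NRP hearts (limma adjusted p = 0.993 and 0.804). Without pig 29 these were 0.17 and 0.21, and after scaling the first was 0.43. The 2 red cell markers were also higher against SCS, with median log2 fold changes of 1.09 and 1.33, and with 1 and 2 of them at an unadjusted p under 0.05. Their part in the values of UBB was not tested.

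ZFAND2A, an arsenite- and heat-inducible partner of the proteasome, read 51.6 TPM in pig 31, 22.3 in pig 33 and 22.4 in pig 34, and 9.31 to 20.6 TPM in the 6 hearts with NRP. Its log2 fold change in the no-NRP against the SCS hearts was 1.15 ± 0.36 (unadjusted p = 0.00685, limma adjusted p = 0.483), and it ranged from 0.76, without pig 31, to 1.35 over the alternatives. It was the 1 gene of 9 ubiquitin and shuttle genes tested with an unadjusted p under 0.05 in that comparison, none of the 9 reached it in the first comparison, and 2 were lower at that threshold in the third, ZFAND2A among them (log2 fold change -0.78 ± 0.36, limma adjusted p = 0.829, and -0.39 without pig 31). After scaling that count was 0.

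The heat shock gene DNAJB1, a co-chaperone that follows the same heat shock factor, passed the test. It read 38.0 to 45.5 TPM in the 6 hearts with NRP and 310, 123 and 189 TPM in pigs 31, 33 and 34, a log2 fold change of 2.20 ± 0.32 against the SCS hearts (limma adjusted p = 0.0228). The log2 fold change of the 24 h HOPE against the no-NRP hearts was -2.16 ± 0.32 (limma adjusted p = 0.0222). Against SCS the adjusted p was above 0.05 without pig 24 (0.139), 25 (0.110), 31 (0.0584) or 34 (0.0531) and after scaling (0.0809), with no filter (0.0719) or in the fit of the 6 hearts (0.0652), while the log2 fold change stayed between 1.82 and 2.52. Against 24 h HOPE it was above 0.05 without pig 27 (0.0560), 28 (0.130), 30 (0.168), 31 (0.0506) or 34 (0.0834) and after scaling (0.131), with no filter (0.102) or without the mitochondrially encoded genes (0.0700), with a log2 fold change between -2.48 and -1.82. It was the 1 called gene of 10 heat shock genes tested, and the proteasome subunits measured in the same hearts gave no call.

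Of 6 ubiquitin ligases of muscle, 1 had an unadjusted p under 0.05 in the first comparison and 0 in the others as deposited, and after scaling 2 had one in the no-NRP against the SCS hearts, TRIM63 and TRIM32. FBXO32 (atrogin-1), which marks muscle proteins for the proteasome, read 92.0, 112 and 98.6 TPM in the NRP + SCS 2 h hearts and 59.7, 39.6 and 64.2 TPM in the NRP + HOPE 24 h hearts, with 42.0, 53.3 and 113 TPM in the No NRP + HOPE 2 h hearts. Against SCS, 24 h of HOPE gave a log2 fold change of -0.90 ± 0.35 (unadjusted p = 0.0222, limma adjusted p = 0.933). TRIM63 (MuRF1) read 212, 384 and 190 TPM, then 108, 159 and 303 TPM, then 132, 102 and 198 TPM, and its groups overlapped in each comparison as deposited. In the no-NRP against the SCS hearts its log2 fold change was -0.84 ± 0.39 (limma adjusted p = 0.690), with a range of -1.19, with array weights, to -0.53, without pig 25, over the alternatives. After scaling it was -0.74 ± 0.32 (limma adjusted p = 0.380). The groups then did not overlap (94.2 to 169 against 177 to 361 scaled TPM), as for 9.92% of all genes with lower values there. TRIM32 was at 0.69 ± 0.25 after scaling (limma adjusted p = 0.322).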

How the data were processed

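RNA was measured by RNA sequencing in 1 apex biopsy from each of 9 hearts, 3 per group, with groups taken from the deposited labels. The authors deposited TPM values for 25149 genes, 12006 of them without a symbol. Per the submitters' processing notes they used bcl2fastq 2.17, Trimmomatic 0.36, STAR 2.5.2b, featureCounts of Subread 1.5.2 and DESeq2. The genome build and the strand setting were not given in the sources used here, so no coordinates are printed, and a table of RefSeq genes on Sscrofa11.1 served only for which genes are neighbours. TPM keep no depth, so the depth per heart is unknown and no counting interval is given. There were 9 columns of values that matched no labelled sample, and they were not used.

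Genes with a TPM of at least 1 in at least 3 hearts (11782) were tested as log2(TPM + 1) with limma 3.58.1 in R 4.3.3, with 1 mean per group, all 9 hearts in the fit, a moderated variance with a trend and Benjamini-Hochberg adjustment over all genes tested. Fold changes are on the log2(TPM + 1) scale and understate the change of low genes. A gene was called at an adjusted p below 0.05 with a log2 fold change beyond 1 in either direction. The procedure was tested on simulated data. The ratio of PSMB9 to PSMB6 was compared with a two-sided exact permutation test, and the planned ratios with PSMB5 and PSMB10 were not analysed here. Tables and plots were made with Python 3.11.15, numpy 2.4.6, pandas 2.3.3 and matplotlib 3.10.9.

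Results were recomputed with median-of-ratios scaling, without the filter (genes above 0 in at least 1 heart), with a pseudocount of 0.1, without the 13 mitochondrially encoded genes, in a fit of the 6 hearts compared, with limma's array weights and without each heart in turn. Any gene matching the symbol rule could be named, as could each of the partners, the regulators and the interferon regulators, and from each other list the 3 with the largest absolute log2 fold change and any called. UBB, TAP1, CD2 and MS4A1 were chosen after their values were seen. The members and lists were chosen with earlier results of these data known, so they give no independent support. The samples are separate pigs. Some genes of the other lists are not reported here.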

Additional observations from a re-analysis of the deposited data

How the results depend on the processing

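No proteasome gene was called in any of the 3 comparisons under any of the 12 alternatives. The median log2 fold change over the 22 genes ran from -0.39 to -0.04 in the first comparison and from -0.30 to -0.07 in the second. In the third it ran from -0.18 to 0.14, so its sign turned. These moves were smaller than the spread between hearts. That spread comes from the same hearts, so leaving out 1 heart could hardly exceed it. The number of the 22 genes at an unadjusted p under 0.05 did move, and so did the share of all genes at that p. For 24 h HOPE against SCS it was 1 (4.97% of all genes), and it was 0 with a pseudocount of 0.1 or with no filter (4.86% and 4.98%), 3 with array weights (13.6%, against 15.4%), and 0 to 1 when a heart was left out (3.21% to 10.7%). For the no-NRP hearts against SCS it was 0 (7.22%), and it was 1 with no filter or with array weights (6.28% and 15.8%) and 2 after median-of-ratios scaling, without the mitochondrially encoded genes or in the fit of the 6 hearts (12.4%, 11.6% and 9.18%). For 24 h HOPE against the no-NRP hearts it was 0 (6.01%), and it was 2 after scaling (11.7%), 1 without the mitochondrially encoded genes or with array weights (9.35% and 15.9%), and 0 to 1 when a heart was left out (4.12% to 9.49%). The members' share was above that of all genes in 1 of these fits, 24 h HOPE against SCS without pig 24 (4.55%, against 3.5%). The cause was not tested.

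When a heart was left out, the difference in the log2 ratio of PSMB9 to PSMB6 ran from -0.18 (without pig 28) to 0.52 for 24 h HOPE against SCS, where the sign turned, from 0.16 to 0.60 for the no-NRP hearts against SCS, and from -0.60 to 0.11 for 24 h HOPE against the no-NRP hearts, where it turned without pig 30 (0.11) and pig 34 (0.01). With a pseudocount of 0.1 the differences were 0.23, 0.78 and -0.55. Leaving out a heart also leaves 2 against 3, where the exact test cannot go below 0.2. No paired analysis was possible because the groups share no replicate numbers, which are the pigs' own. With TPM alone, how far depth limits the low genes, such as PSMB8 and PSMB9, is unknown.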
